A study of Mus musculus with 6 samples.

Results

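The ISG15 conjugation system was followed through 5 genes picked by symbol from tables of 54532 genes: Isg15, Uba7, Ube2l6, Herc6 and Usp18. Each symbol matched 1 row, and all 5 were among the 9943 genes that averaged 1 FPKM or more and entered the test. FPKM is a read count corrected for gene length and library depth, so it allows levels to be set side by side between libraries. Between genes, such a comparison rests on the gene lengths given with the data. RNA came from macrophages of C57BL/6 mice that the labels call bone-marrow-derived, meaning phagocytes grown from marrow in culture. One group carried a negative-control small interfering RNA (siNC) and the other a small interfering RNA against Cxcr4 (siCXCR4), and every sample of both groups was exposed to lipopolysaccharide (LPS) at 100 ng/ml for 12 hours. The groups are called here as the sample labels name them, although the headings inside the deposited tables call the libraries wt and mko, and the sources used here do not say which description holds. No sample without LPS was analysed here, so the values are levels under LPS and not inductions by it. The labels name 3 samples per group, but siNC replicate 3 repeats replicate 2 as whole counts, equal in 19072 of 19072 genes with reads, and was counted once with it. Values below are therefore from 2 siNC and 3 siCXCR4 libraries, with means as FPKM ± SD (n = 2 and n = 3). The labels do not say whether a replicate is another animal, another culture or another library of the same RNA, so p-values cover only the spread among these libraries, which may be technical.

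ISG15 is a small protein related to ubiquitin that is made in large amounts after type I interferon, which macrophages release when LPS engages TLR4. Like ubiquitin it is attached to other proteins by a relay: UBA7 activates it, UBE2L6 carries it, and in mice HERC6 is the main ligase that places it on targets, a role taken in humans by HERC5. USP18 cuts ISG15 off its targets again and, apart from that activity, sits on the interferon receptor subunit IFNAR2 and dampens further signalling. All of these genes are known interferon targets, and many such genes are switched on through a promoter motif, the interferon-stimulated response element (ISRE).

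The promoter window of Isg15 is shown because it alone among the 4 members with a window held the ISRE core, and that of Uba7 because it held only a shorter motif. Usp18 had no window and was not searched. Windows ran from 250 bases before to 50 bases after the RefSeq start of the gene on GRCm38.p6. Of the 5 members, 4 had one (Isg15, Uba7, Ube2l6 and Herc6). For Uba7 and Herc6 the RefSeq start is not the gene start given with the data. The motifs searched on both strands were the ISRE core (GAAA, any 2 bases, GAAA), the shorter AANNGAAA that it contains and that interferon regulatory factors recognise, and the STAT motif TTCNNNGAA. In the Isg15 window, at chr4:156200769-156201068 on the minus strand, capitals mark 3 overlapping matches to the ISRE core between 78 and 57 bases before the start. In the Uba7 window, at chr9:107975317-107975616 on the plus strand, capitals mark its single match to AANNGAAA, on the opposite strand. It lies 27 to 20 bases before the RefSeq start, but inside the gene as given with the data, which begins at 107975505.
Isg15: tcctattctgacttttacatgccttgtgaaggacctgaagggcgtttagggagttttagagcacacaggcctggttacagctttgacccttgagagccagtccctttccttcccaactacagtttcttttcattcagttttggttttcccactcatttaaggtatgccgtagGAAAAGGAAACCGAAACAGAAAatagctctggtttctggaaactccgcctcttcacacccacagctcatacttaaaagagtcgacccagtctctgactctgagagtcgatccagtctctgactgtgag
Uba7: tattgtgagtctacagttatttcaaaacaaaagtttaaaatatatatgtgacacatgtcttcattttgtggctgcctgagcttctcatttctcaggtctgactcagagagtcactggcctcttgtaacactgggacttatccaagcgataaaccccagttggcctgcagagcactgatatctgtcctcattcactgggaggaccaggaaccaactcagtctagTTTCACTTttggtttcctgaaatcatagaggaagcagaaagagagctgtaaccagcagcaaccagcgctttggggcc
The ISRE core occurred in 3.44% of all 32851 promoter windows of this length, in 3.62% of the windows of genes tested, and in 18 of 38 windows, which belong to 30 genes, of the other interferon-stimulated genes listed here. AANNGAAA alone occurred in 23.9% of all windows, so the single match at Uba7 is a common one. The windows of Ube2l6 and Herc6 held none of the 3 motifs, and that of Uba7 held no ISRE core and no STAT motif. The letters describe these windows only.

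Isg15, the modifier itself, was among the most abundant transcripts of these cells per length, at place 9 or 10 of the 9943 genes in every library. Its gene spans 156199424 to 156200818 on chromosome 4 (minus strand, GRCm38 coordinates throughout). Its level was 2084 and 2114 FPKM in the siNC libraries and 2121, 2168 and 1902 FPKM in the siCXCR4 libraries. The siCXCR4 values thus lay on both sides of the siNC values, with replicate 3 as the lowest of all 5 and replicate 2 as the highest. The group means were 2099 ± 21.5 and 2064 ± 142 FPKM, and the log2 fold change (siCXCR4 relative to siNC, from log2(FPKM + 1) values) was -0.03 (95% interval -0.20 to 0.15, adjusted p = 0.928 by limma over all genes tested). Its sign turned to 0.014 with quantile normalization and to 0.031 without siCXCR4 replicate 3, so no direction can be given. Each library counted 27545 to 34933 reads of Isg15, which made up 0.146% to 0.164% of the reads in genes. In bulk RNA a change in the share of cells making a transcript and a change in its amount per cell cannot be told apart.

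The 3 conjugating enzymes were each found at a small fraction of the level of the modifier, and none of them passed the adjusted threshold of 0.05 by limma. Uba7, the activating enzyme on chromosome 9 (107975505 to 107984060, plus strand), was at 54.3 and 57.6 FPKM in siNC and at 57.6, 54.8 and 61.3 FPKM in siCXCR4. These values interleaved, and the difference of 0.05 on the log2 scale (95% interval -0.10 to 0.20, adjusted p = 0.830) was within the spread of the libraries. Without siNC replicate 1 it was 0.01, and without siNC replicate 2 it was 0.09.

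Ube2l6, the conjugating enzyme on chromosome 2 (84798828 to 84810335, plus strand), was the most even of the members. It was at 117 and 115.4 FPKM in siNC and at 115.2, 115.3 and 109 FPKM in siCXCR4. Every siCXCR4 library was thus below each siNC library, but the gap between siNC replicate 2 and siCXCR4 replicate 2 was far smaller than the counting interval of up to 3.08% on these 4185 to 5167 reads. In 9.92% of all genes tested the siCXCR4 values likewise lay wholly below those of siNC. The log2 fold change was -0.04 (95% interval -0.16 to 0.08, adjusted p = 0.825 by limma).

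Herc6, the ligase on chromosome 6 (57581000 to 57664632, plus strand), was the least abundant member per length. It was at 40.9 and 43.9 FPKM in siNC and at 45.5, 40.5 and 46.9 FPKM in siCXCR4. The groups overlapped, since siCXCR4 replicate 2 was the lowest of the 5 libraries and siCXCR4 replicate 3 the highest. The log2 fold change was 0.06 (95% interval -0.12 to 0.24, adjusted p = 0.812 by limma), and it ran from 0.01 without siNC replicate 1 to 0.12 without siCXCR4 replicate 2. Herc6 and Uba7 were both lowest in siNC replicate 1 and siCXCR4 replicate 2, and their ratio stayed between 1.27 and 1.35 in the 5 libraries.

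Usp18, the deconjugase, was the member with the largest difference, 1.16-fold higher on average in siCXCR4. Its gene spans 121245906 to 121270917 on chromosome 6 (plus strand). It was at 218 and 226 FPKM in siNC and at 269, 245 and 257 FPKM in siCXCR4, so all 3 siCXCR4 values lay above both siNC values, with replicate 2 nearest to them. The siCXCR4 values lay wholly above those of siNC in 17.9% of all genes tested, and the groups did not overlap in either direction in 27.8%, beside 2 of the 5 members. On the log2 scale the difference was 0.21 (SE 0.0586, 95% interval 0.07 to 0.35), with an unadjusted p of 0.00963 and an adjusted p of 0.488 by limma, so it did not pass the threshold of 0.05 over all genes. By p it stood at place 189 and by size of a positive log2 fold change at place 362 of 9943. The exact two-sided permutation test gave p = 0.1, the smallest possible with 2 libraries in one group and 3 in the other.

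On the whole reads worked back from FPKM, 12442 to 16338 per library for Usp18, the log2 fold change was 0.19 by edgeR (adjusted p = 0.274) and 0.20 by DESeq2 (adjusted p = 0.228). Usp18 was higher in siCXCR4 in each of 16 alternatives, by 0.18 to 0.24, and passed the adjusted threshold in none, with adjusted p from 0.120 to 0.924. The 0.120 came from limma with the repeated siNC table counted as a separate replicate, which counts 1 library 2 times. The lowest otherwise was 0.187, by limma without siCXCR4 replicate 2. Of the 5 members, 0 passed the adjusted threshold by limma, where the share over all genes was 0%, and 0 passed by edgeR, where it was 0.133%, or by DESeq2, where it was 0.328%. At an unadjusted p under 0.05 by limma there was 1 member higher, Usp18, and 0 lower, where 5.80% of all genes were higher and 3.54% lower. That count was 0 without siNC replicate 1, where Usp18 had an unadjusted p of 0.0694 and an adjusted p of 0.863 by limma. It was also 0 with the replicate block, where Usp18 had an unadjusted p of 0.0647 and an adjusted p of 0.924 by limma. Of the members 3 lay above 0, beside 56.4% of all genes, and 4 lay between -0.1 and 0.1, beside 66.4% of all genes. Their median log2 fold change was 0.05, where that over all genes tested was 0.01.

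**Figure D1:**
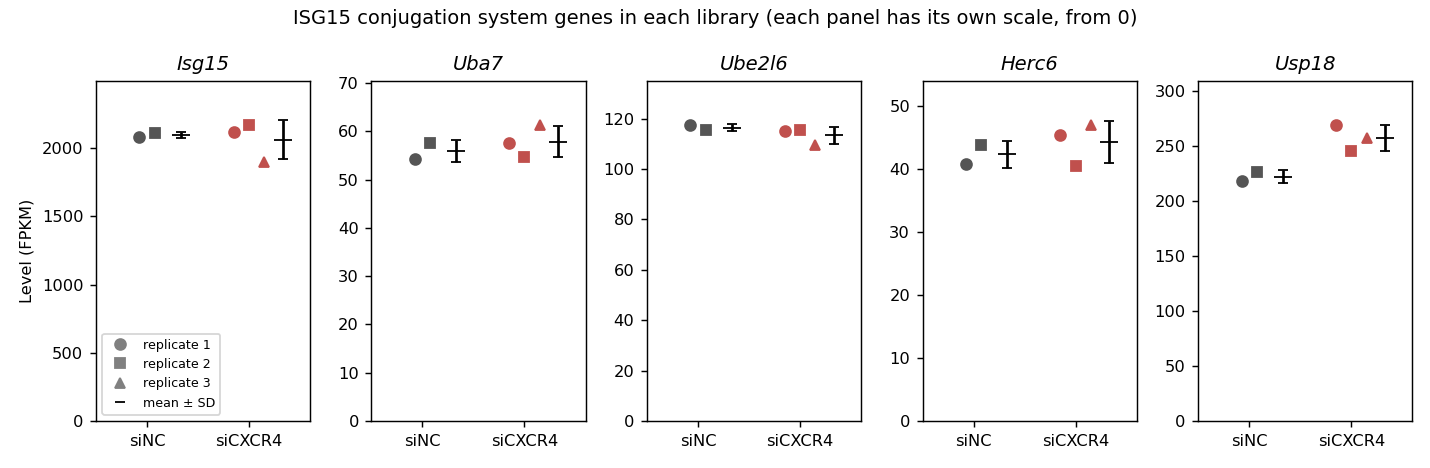
Level in FPKM (vertical axes, each from 0) of the 5 genes in the 2 siNC libraries (grey) and the 3 siCXCR4 libraries (red); symbols give the replicate number and black bars the mean ± SD. Usp18 lies at 218 and 226 FPKM in siNC and between 245 and 269 FPKM in siCXCR4, while the values of Isg15, Uba7 and Herc6 interleave.

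**Figure D2:**
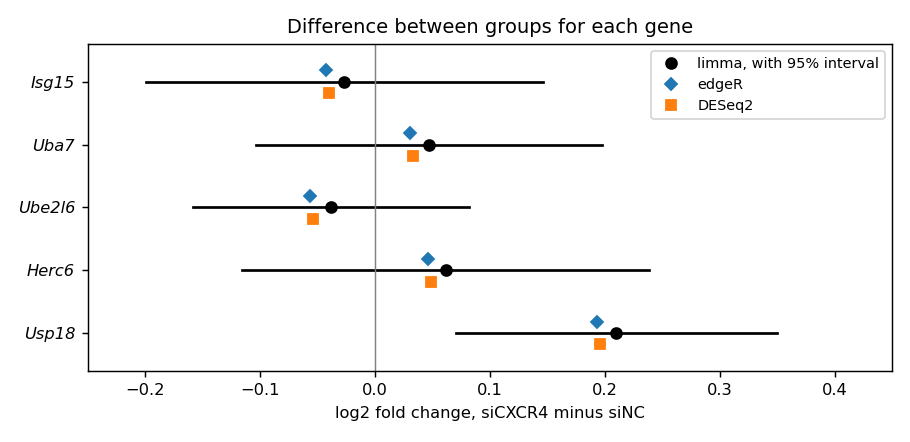
Log2 fold change, siCXCR4 minus siNC (horizontal axis), for each gene by limma with its 95% interval (black), edgeR (blue) and DESeq2 (orange). The interval of Usp18 runs from 0.07 to 0.35 before any adjustment for the number of genes, and those of the other 4 genes include 0.

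The order of levels per length was the same in every library: Isg15, then Usp18, Ube2l6, Uba7 and Herc6. No neighbours in this order overlapped over the 5 libraries. Isg15 was 7.40 to 9.56 times the level of Usp18, Usp18 was 1.86 to 2.35 times that of Ube2l6, and Ube2l6 was 1.79 to 2.16 times that of Uba7. The lowest Uba7 value, 54.3 FPKM, lay above the highest Herc6 value, 46.9 FPKM. Per length, the transcript of Usp18 was thus more abundant than those of Uba7, Ube2l6 and Herc6, in both groups. The order depends on the gene lengths used: 2790 bases for Usp18, 1996 for Ube2l6, 6692 for Uba7 and 9292 for Herc6. In reads not divided by length, Herc6 (7299 to 9201) and Uba7 (7105 to 8400) stood above Ube2l6 (4185 to 5167). Usp18, with 12442 to 16338 reads, stood above these enzymes that way too. These are levels of RNA, and protein was not measured.

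Setting the conjugating enzymes against the deconjugase within a library removes the scaling of that library from the comparison. The mean of Uba7, Ube2l6 and Herc6 stood at -1.75 log2 units relative to Usp18 in each siNC library and at -1.99, -1.93 and -1.90 in the siCXCR4 libraries. The groups did not overlap, and the difference between their means was -0.19, which is -12.1% for the ratio of enzymes to deconjugase. For the single enzymes, Ube2l6 per Usp18 was 0.539 and 0.510 in siNC and 0.428, 0.470 and 0.426 in siCXCR4. Uba7 per Usp18 was 0.249 and 0.255 in siNC against 0.214, 0.223 and 0.238. For Herc6 the ratios were 0.188 and 0.194 against 0.169, 0.165 and 0.183. The modifier lay the same way, at 9.56 and 9.35 Isg15 per Usp18 in siNC and 7.89, 8.83 and 7.40 in siCXCR4.

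All 4 ratios to Usp18 were therefore lower in every siCXCR4 library than in either siNC library. This holds for most of the transcriptome: relative to Usp18 in the same library, 67.1% of the other genes tested lay lower in siCXCR4 without overlap, and 96.4% were lower on average. The 4 genes share Usp18 as denominator and are not separate pieces of evidence, and no p is given for the ratios. Ratios among the other 4 members overlapped between the groups. Uba7 minus Herc6 differed by -0.01 between groups on the log2 scale, Uba7 minus Ube2l6 by 0.08, Herc6 minus Ube2l6 by 0.10 and Isg15 minus Ube2l6 by 0.01. The lower ratios thus went with the higher Usp18 values, not with lower values of all the enzymes.

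**Figure D3:**
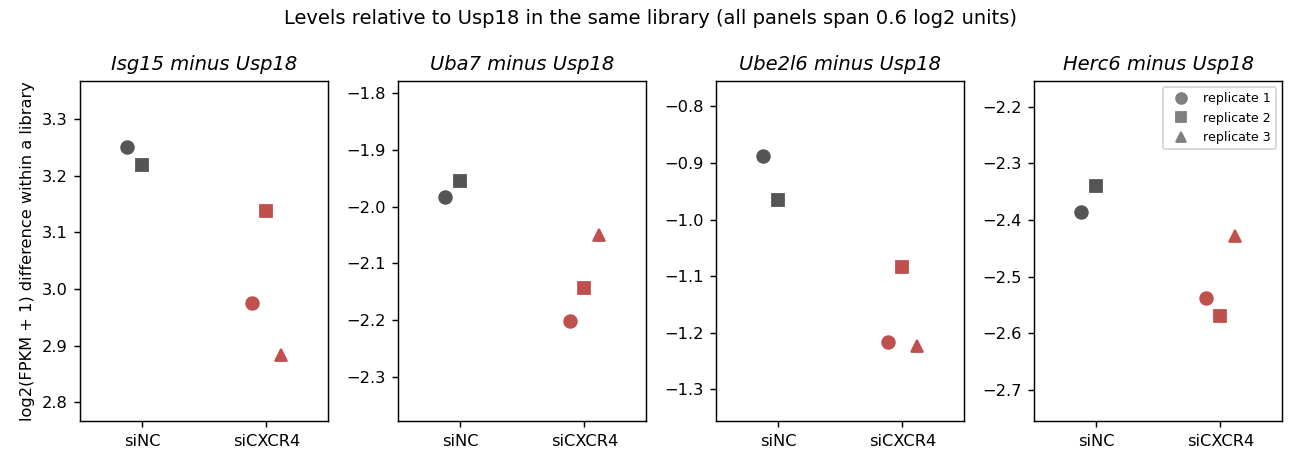
Level of Isg15, Uba7, Ube2l6 and Herc6 relative to Usp18 in the same library, as a difference of log2(FPKM + 1) (vertical axes, of equal span), in 2 siNC (grey) and 3 siCXCR4 (red) libraries. In each panel all siCXCR4 points lie below the siNC points, as they do for 67.1% of all other genes tested.

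Among further enzymes reported to attach or remove ISG15, 5 of 7 were tested. At an unadjusted p under 0.05 by limma there were 0, where 5.80% of all genes were higher and 3.54% lower. Trim25, a ligase that also activates the RNA sensor RIG-I, was the most abundant, averaging 94.7 ± 4.13 FPKM with siNC and 99.8 ± 3.46 FPKM in siCXCR4. Arih1, another ligase, was at 18.3 ± 0.0920 and 18.6 ± 0.540 FPKM. The ubiquitin proteases Usp5 and Usp21, which also cut ISG15 in biochemical work, differed by 0.03 (SE 0.0560) and 0.05 (SE 0.0616) on the log2 scale, while Usp2 and Usp13 stayed under 1 FPKM in every library. Per length, Usp18 was therefore also more abundant than each of these.

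Upstream of these genes, 2 type I interferon ligands were examined, and both had few or no reads at this time of LPS. Ifnb1, which encodes interferon beta, had 13 and 8 reads in siNC and 8, 7 and 6 in siCXCR4, too few to compare. Ifna4 had 0 reads in all 5 libraries, and no other interferon alpha gene was examined. Of the 4 receptor and kinase genes tested, 1 had an unadjusted p under 0.05 by limma: Jak1, a kinase of the receptor, at 59.8 ± 1.22 FPKM with siNC and 66.4 ± 3.63 FPKM in siCXCR4 (adjusted p = 0.530), where 5.80% of all genes were higher and 3.54% lower by this rule. Tyk2, its partner kinase, was at 29.7 ± 0.579 and 31.7 ± 0.876 FPKM. In 2 of the 4 genes, Jak1 and Tyk2, the siCXCR4 values lay wholly above those of siNC, beside 17.9% of all genes. For the receptor subunits the log2 fold change was 0.0011 (Ifnar1, SE 0.0477) and 0.06 (Ifnar2, SE 0.0518).

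Of the 9 transcription factors of the interferon response, 0 had an unadjusted p under 0.05 by limma, beside 5.80% of all genes higher and 3.54% lower. Their median log2 fold change was 0.06, where that of all genes was 0.01. Irf7, which amplifies interferon production and binds the ISRE, was the most abundant. It was at 601 ± 28.8 FPKM with siNC and 660 ± 35.2 FPKM in siCXCR4 (adjusted p = 0.576 by limma). The siCXCR4 values lay wholly above those of siNC in 3 of the 9 factors, Irf7, Irf9 and Irf2, beside 17.9% of all genes. Stat2, through which USP18 reaches the receptor, was at 143 ± 5.73 and 153 ± 6.95 FPKM, with overlap. Irf5 and Irf2, an activator and a repressor of interferon genes, both differed by 0.09 on the log2 scale (SE 0.0637 and 0.0605).

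Of the 20 known protein targets of ISG15, 12 lay above 0, beside 56.4% of all genes, and 8 under it. Their median was 0.02 on the log2 scale, where that of all genes was 0.01. By limma 2 were higher at an unadjusted p under 0.05, Ifit1 and Jak1, and 0 lower, beside 5.80% and 3.54% of all genes. Ifit1, an RNA-binding antiviral protein, was the most abundant target, at 594 ± 28.6 FPKM with siNC and 685 ± 50.1 FPKM in siCXCR4 (adjusted p = 0.512). Ddx58, which encodes RIG-I, was at 80.8 ± 2.30 and 89.2 ± 5.21 FPKM, and Ifih1, which encodes the sensor MDA5, at 94.3 ± 3.03 and 100.2 ± 2.06 FPKM. The siCXCR4 values lay wholly above those of siNC in 5 of the 20 targets, these 3, Jak1 and Pkm, beside 17.9% of all genes. The lists share genes, so these counts are not separate from those of other lists. Ifit1, Ddx58 and Ifih1 are also among the other interferon-stimulated genes below, and Jak1 is among the kinases above.

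Free ISG15 outside the cell signals through the integrin LFA-1, whose chains are Itgal and Itgb2, and drives release of interferon gamma and interleukin-10 from lymphocytes. Itgal averaged 337 ± 17.0 FPKM with siNC and 309.8 ± 17.3 FPKM with siCXCR4, and Itgb2, the most abundant gene of this list, at 489.6 ± 12.0 and 509 ± 8.25 FPKM. Il10, the anti-inflammatory cytokine that macrophages also make, was at 17.1 and 19.0 FPKM in siNC and 24.0, 22.4 and 21.2 FPKM in siCXCR4. Its log2 fold change was 0.30 (SE 0.0724, unadjusted p = 0.00452, adjusted p = 0.457 by limma), on 491 to 686 reads per library. Ifng was at 4.40 ± 1.42 and 4.03 ± 1.01 FPKM.

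The other interferon-stimulated genes, a list of 38 that were all tested, lay mostly above 0: 31 above it, beside 56.4% of all genes, and 7 under it. Their median was 0.09 on the log2 scale, where that of all genes was 0.01. By limma 7 were higher at an unadjusted p under 0.05 and 0 lower, beside 5.80% and 3.54% of all genes. In 11 of them the siCXCR4 values lay wholly above siNC, beside 17.9% of all genes. None passed the adjusted threshold by limma or edgeR, where the shares over all genes were 0% and 0.133%. DESeq2 called 1, Cmpk2 (adjusted p = 0.0193), where the share over all genes was 0.328%. Cmpk2 was at 416 and 458 FPKM in siNC and at 596, 497 and 582 FPKM in siCXCR4. Oasl1, Mx2 and Ifit1 were the others of lowest p, with log2 fold changes of 0.17 (SE 0.0537), 0.26 (SE 0.0954) and 0.20 (SE 0.0754), and Gbp2 was the most abundant of the list at 1266 ± 95.7 and 1341 ± 40.5 FPKM.

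Placed among these 38 genes, Usp18 stood with the upper end: 4 had a larger log2 fold change and 1 had a lower p. Isg15 and Ube2l6 stood near the lower end, each with 35 of 38 above them. Uba7 and Herc6 lay between, with 24 and 23 of 38 above. The log2 fold change was 0.21 for the deconjugase and from -0.04 to 0.06 for the other 4 members. By level per length, none of the 38 was above Isg15, while 35 were above Uba7 and 37 above Herc6.

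**Figure D4:**
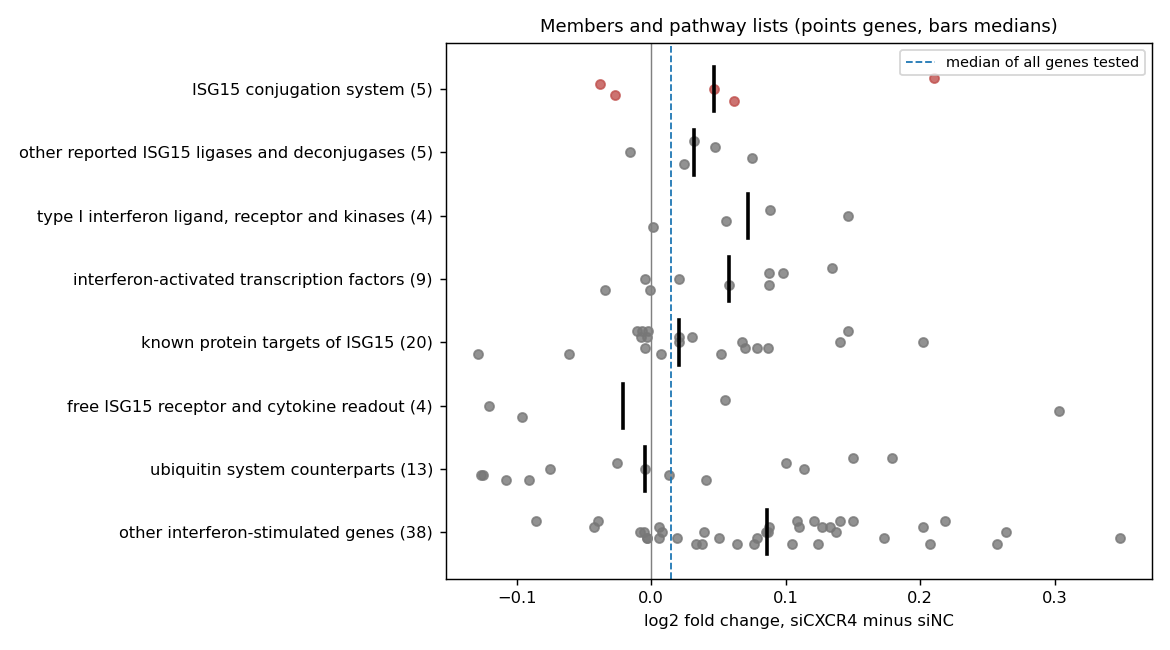
Log2 fold change, siCXCR4 minus siNC (horizontal axis), of each gene tested in the ISG15 conjugation system (red) and in 7 lists around it (grey); the number tested is given with each list, black bars are medians and the dashed line is the median of all genes tested, 0.01. The 5 members run from -0.04 (Ube2l6) to 0.21 (Usp18), and the median of the other interferon-stimulated genes is 0.09. The grey lists share some genes.

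Genes of the ubiquitin system that correspond to steps of the ISG15 relay were set beside the members. Ube2l3, the closest relative of Ube2l6, averaged 21.8 ± 0.00979 FPKM with siNC and 23.6 ± 1.22 FPKM with siCXCR4, and Ubb, a polyubiquitin gene and the most abundant of the list, at 442 ± 6.70 and 435 ± 25.7 FPKM. Of the 13 genes tested, 0 had an unadjusted p under 0.05 by limma, where 5.80% of all genes were higher and 3.54% lower. Above 0 lay 6 of them, beside 56.4% of all genes, and 7 lay below it. Among relatives of Herc6, Herc4 differed by 0.10 (SE 0.0601) and Herc2 by -0.13 (SE 0.0867) on the log2 scale.

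Genes whose pattern over the 5 libraries was most like that of a member were found by the root-mean-square difference between centred log2(FPKM + 1) values. For Usp18 these were Lgmn (0.00909), Mpp1 (0.0123), Polr3c (0.0154) and Ubl3 (0.0164), where the median over all genes was 0.126. Lgmn, a lysosomal protease, was at 348 and 364 FPKM in siNC and 431, 397 and 418 FPKM in siCXCR4. The order of libraries was that of Usp18, as goes with picking it for its likeness. For Isg15 the nearest were St7 (0.0102), Gm9392 (0.0107), Mplkip (0.0125) and Mlx (0.0126), where the median was 0.0998. By likeness to Usp18, the nearest other member was Herc6 at place 1900, and Isg15 stood at place 6098. By likeness to Isg15, Ube2l6 was the nearest member, at place 294 with a difference of 0.0404, and the other 3 lay at place 6790 or beyond.

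The siRNA target Cxcr4 was at 41.3 and 42.1 FPKM in siNC and at 31.1, 36.2 and 32.7 FPKM in siCXCR4, 0.80 of the control level on average. It passed the adjusted threshold by DESeq2 (adjusted p = 0.0465), and did not by edgeR (adjusted p = 0.0637) or limma (adjusted p = 0.457). Macrophage markers were high, from 3891 to 4041 FPKM summed in siNC and 3774 to 4083 in siCXCR4, mostly Lyz2. Of the 7 tested, the siCXCR4 values lay wholly above those of siNC in 1, Cd68, and wholly below in 1, Mertk. The shares over all genes were 17.9% and 9.92%. All 8 lymphocyte and natural killer cell markers and all 5 dendritic cell markers stayed under 1 FPKM, with the plasmacytoid marker Siglech at 0. The dendritic cell markers summed to 0.401 to 0.409 FPKM in siNC and 0.512 to 0.606 FPKM in siCXCR4, but did not all lie the same way. Zbtb46 averaged 0.0665 FPKM in siNC and 0.0441 FPKM in siCXCR4, with overlap. Ccr9 overlapped too, at 0.129 and 0.144 FPKM, and Flt3 had at most 2 reads in a library. The highest of the 5 dendritic cell markers in siCXCR4 was Xcr1, a marker of cross-presenting dendritic cells. It was at 0.143 and 0.262 FPKM in siNC and 0.402, 0.371 and 0.387 FPKM in siCXCR4. This was on 14 to 39 reads per library (unadjusted p = 0.0103, adjusted p = 0.353 by edgeR). The part of dendritic cells in the values of Usp18 was not tested. Neutrophil markers summed to 37.0 to 38.0 FPKM in siNC and 34.6 to 42.6 in siCXCR4, mostly Ngp, while Ly6g, Mpo and Elane stayed under 1 FPKM. Fibroblast and endothelial markers summed to at most 2.57 FPKM.

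Overlapping genes and copies hold few reads beside the members. The genes that overlap Uba7, Herc6 and Usp18 averaged at most 10.6 reads per library, beside 7797, 8254 and 13840 for the members. The listed pseudogene copies of Isg15 and Ube2l6 held 1 and 0 reads over all 5 libraries.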

How the data were processed

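In 5 of the 6 tables the authors deposited normalized values per gene length and depth, read as FPKM from the values, because multiplying them by gene length gave whole multiples of a constant in each library (tolerance 0.05); they may equally be RPKM. The table of siNC replicate 3 holds deposited raw read counts. Aligner, counting tool and strand setting were not given in the sources used here. Gene positions match GRCm38 for 98.3% of genes and all 5 members, although mm9 is named in the submitters' processing notes.

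Whole reads were worked back from FPKM, and totals ran from 18890751 to 21780840 reads in genes. Counting intervals are exact Poisson (95%) and cover counting error only. The FPKM denominators also held reads outside the listed genes, 2.80% and 2.15% in siNC and 0.00033%, 0.312% and 1.37% in siCXCR4. Of repeated symbols the row of highest mean was kept.

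The test was limma 3.58.1 (R 4.3.3, trend and robust estimate, two-sided) on log2(FPKM + 1) of genes averaging 1 FPKM or more, with Benjamini-Hochberg adjustment over all of them. Alternatives were edgeR 4.0.16 and DESeq2 1.42.0 on whole reads, a pseudocount of 0.1, no filter on low values, an average of 5 FPKM or more, quantile and median scaling, scaling to reads in listed genes, limma without trend and robust estimate, the repeated table as a separate replicate, a replicate block and each library left out. The members, lists and tests were chosen with earlier results of these data known. Named genes were the members, Cxcr4, up to 4 of lowest p and the most abundant of each list, and the 4 most alike to Isg15 and to Usp18. Usp2, Usp13, Ifnb1, Ifna4, Irf9, Pkm, Rps27a and single cell-type markers were named after their values were seen. Some items of the lists are not reported here by name.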

Additional observations from a re-analysis of the deposited data

How the results depend on the processing

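Over 16 alternatives, Usp18, Uba7, Ube2l6 and Herc6 kept their direction and stayed outside the adjusted threshold. Isg15 stayed outside it too, but its log2 fold change of -0.03 turned to 0.014 with quantile normalization and to 0.031 with the replicate block and without siCXCR4 replicate 3; over the libraries left out it ran from -0.063 to 0.031. The difference of the conjugating enzymes from Usp18 ran from -0.21 to -0.16. The median of the 5 members ran from 0.0050 without siNC replicate 1 to 0.088 without siNC replicate 2, and was 0.085 without siCXCR4 replicate 2.

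Of all genes, limma called 0, with 929 at an unadjusted p under 0.05 (577 higher, 352 lower), edgeR called 17, DESeq2 33 and limma with the repeated table as a replicate 6; leaving out 1 library gave 0 to 1 calls, the 1 without siCXCR4 replicate 2. The cause was not tested. Scaled to reads in listed genes, those at an unadjusted p under 0.05 split into 333 higher and 507 lower, with Usp18 at 0.18 and Ube2l6 at -0.07, and by edgeR into 571 and 674.

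The labels give both groups the replicate numbers 1 and 2, without saying that a number marks a shared source. Deviations from the group means correlated over genes at -0.04 for number 1 and at -0.11 for number 2. With 2 siNC libraries these deviations mirror each other, so the unlike numbers gave 0.04 and 0.11 by construction. No conclusion on pairing is drawn from these correlations. With the replicate block, where siCXCR4 replicate 3 has no partner, limma called 0 genes and Usp18 was at 0.21 (adjusted p = 0.924).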

Other observations

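Rps27a, which encodes a fusion of ubiquitin and a ribosomal protein, varied far more between libraries than any other ubiquitin gene of the list. It was at 29.7 and 56.7 FPKM in siNC and at 71.2, 66.8 and 21.1 FPKM in siCXCR4, so the lowest and the highest values were both in siCXCR4. Rps27a has processed copies in the genome, and how reads matching several places were counted was not given in the sources used here. Their part in this spread was not tested.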
